A study of Mus musculus with 12 samples.

Results

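The BCL2 family was followed at the level of its transcripts in 3 mouse lines of the melanocyte lineage. Its 10 members were chosen by name from the 34513 genes of the count table, with 1 row for each, and comprised 3 anti-apoptotic genes (Bcl2, Bcl2l1 and Mcl1), 2 effectors (Bax and Bak1) and 5 BH3-only genes (Bcl2l11, Bbc3, Bmf, Bid and Pmaip1). Melan-A is a non-tumorigenic melanocyte line, B16F0 is a tumorigenic melanoma line and B16F10 is a metastatic melanoma line, and each was profiled by RNA-seq without treatment and with SX-682, an antagonist of the chemokine receptors CXCR1 and CXCR2. Each of the 6 groups held 2 libraries, 12 in all. The sample labels gave neither dose nor time for SX-682 and called the controls untreated, so whether the controls received the vehicle is not given in the sources used here. Each line is 1 culture model, and nothing in the labels says whether the libraries of a group came from separate cultures, so the p-values measure the spread between these libraries, which may be technical.

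BCL2 family proteins decide whether the outer membrane of the mitochondrion is opened during apoptosis. Bax and Bak1 form the pores, the anti-apoptotic proteins bind and restrain them, and the BH3-only proteins, which respond to stress signals, block the anti-apoptotic proteins or activate the effectors directly. Melanocytes and melanoma cells are known for high levels of anti-apoptotic proteins, and Bcl2 is a target of the melanocyte factor Mitf. Much of the regulation of Mcl1, Bid, Bax and Bak1 takes place on the protein, which was not measured here.

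Library totals were between 48876982 and 85322092 counts. Of the 10 members, 9 passed the filter on low counts and were tested, and they held 566 to 18007 counts in every library. The 8 melanocytic markers summed to 1351 to 1382 CPM (counts divided by the TMM-scaled library total) in Melan-A controls, against 19270 to 19370 CPM in B16F0 controls and 25120 to 25150 CPM in B16F10 controls. All 8 were detected in each group, but Tyr, tyrosinase, was at a mean of only 0.826 CPM in Melan-A controls, and Pmel was at 8.11 CPM there. With SX-682 the same sum was 1353 to 1361 CPM in Melan-A, 16210 to 16420 CPM in B16F0 and 15250 to 15500 CPM in B16F10. The sum hides single markers. Mean Mitf went from 102.1 to 79.26 CPM in Melan-A, from 366.6 to 84.65 CPM in B16F0 and from 420.3 to 190.4 CPM in B16F10. In Melan-A the means of Tyrp1 and Sox10 were higher with SX-682 and those of the other markers lower. The 2 endothelial markers summed to at most 2.15 CPM and the 3 leukocyte markers to at most 0.379 CPM in any library. The 4 keratinocyte markers summed to 2.48 to 3.39 CPM in Melan-A libraries and to at most 0.759 CPM in the B16 lines. The 4 fibroblast markers summed to 51.4 to 53.8 CPM in Melan-A libraries, mostly Col1a1, and to 8.42 to 16.6 CPM in the B16 lines. The part of these markers in the values below was not tested, and in such bulk samples fewer cells of a type and less RNA per cell cannot be told apart.

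Pmaip1, which encodes the BH3-only protein Noxa, was the member without a usable signal. It had 0 counts in 9 libraries and 1 count in each of the other 3, which were both Melan-A libraries with SX-682 and 1 Melan-A control. All 12 libraries were therefore at or under the floor of 3 counts, which is 0.033 to 0.0623 CPM depending on the library, and no fold change was computed. Noxa transcripts were not detectable at this depth in any group, and SX-682 could not be assessed for this gene.

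The first comparison asked how the untreated lines differed. Per kilobase of exon, the scale on which genes can be compared, Mcl1 was the most abundant member in Melan-A controls at 58.4 ± 0.530 CPM per kb (SD, n = 2) and in B16F0 controls at 66.4 ± 0.881. In B16F10 controls that place was taken by Bax at 109.4 ± 0.981 CPM per kb, ahead of Mcl1 at 57.9 ± 1.19. In all 3 lines Bcl2l11, which encodes Bim, was the lowest of the tested members, at 1.14 to 1.65 CPM per kb. The full order in Melan-A ran Mcl1, Bax, Bak1, Bcl2l1, Bid, Bmf, Bcl2, Bbc3 and Bcl2l11. In B16F0 Bbc3 and Bcl2 stood above Bmf, and in B16F10 Bcl2 stood above Bbc3 and Bmf. Bak1 and Bcl2l1 lay within their summed SDs of each other in Melan-A controls, at 26.2 ± 0.579 and 25.6 ± 0.113 CPM per kb, and in B16F10 controls, at 38.1 ± 0.614 and 37.1 ± 0.593. All other neighbours differed by more than their summed SDs. The order depends on the length used: divided by the longest transcript in place of all exons, Bcl2l1 reached 45.7, 46.3 and 66.3 CPM per kb in Melan-A, B16F0 and B16F10 controls, above Bak1 in each of them and, in B16F10, above Mcl1. By that length Bax was the most abundant member in B16F0 controls too, at 85.0 CPM per kb against 66.4 for Mcl1. In Melan-A controls Mcl1 stayed first, at 58.4 against 55.6 for Bax, and Bid was above Bak1, at 29.2 against 26.4.

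**Figure D1:**
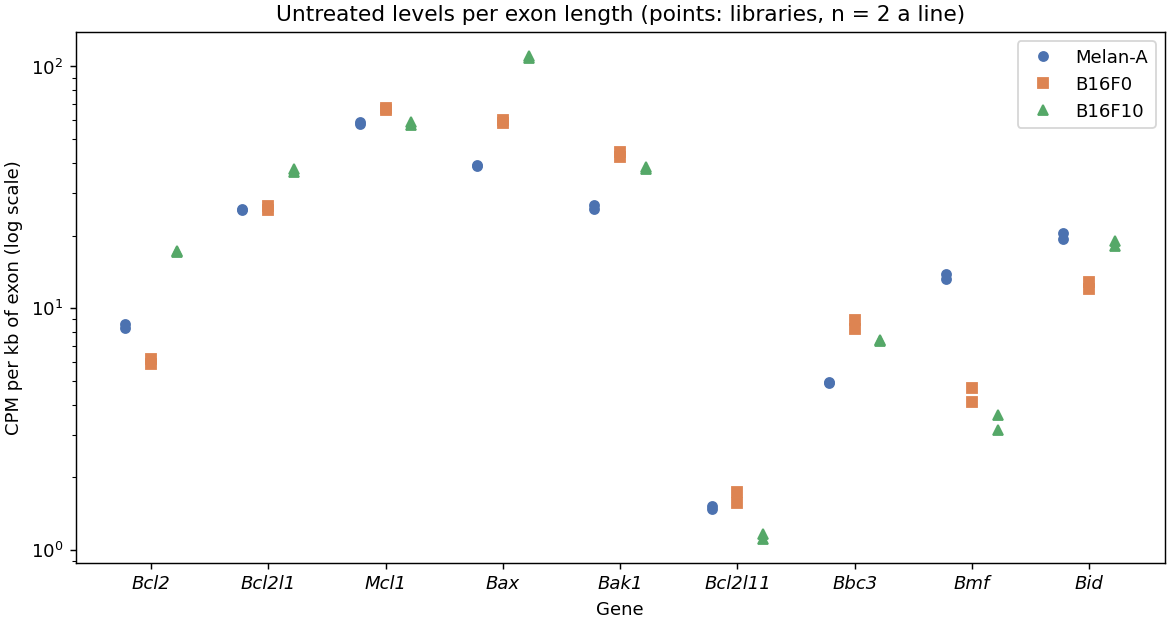
Untreated level of the 9 tested members, in CPM per kilobase of exon on a log axis, with a point for each library (n = 2 a line; Melan-A circles, B16F0 squares, B16F10 triangles). Bax averaged 38.8 in Melan-A and 109.4 CPM per kb in B16F10, while Bmf was highest in Melan-A at 13.5 CPM per kb.

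Both effectors were higher in the untreated melanoma lines than in Melan-A. Bax stood at 61.4 and 60.9 CPM in Melan-A controls, 95 and 92.1 CPM in B16F0 controls and 173.5 and 171.3 CPM in B16F10 controls. The 3 lines did not overlap, and the level was 1.53-fold higher in B16F0 than in Melan-A (log2 difference 0.61 ± 0.03 SE, adjusted p = 6.21e-17) and 2.82-fold higher in B16F10 (1.50 ± 0.03, adjusted p = 6.89e-27). Bak1 was at 62.1 and 64.1 CPM in Melan-A, 106.4 and 102 CPM in B16F0 and 92.8 and 90.7 CPM in B16F10, with no overlap between lines. Its log2 difference from Melan-A was 0.72 ± 0.04 in B16F0 and 0.54 ± 0.04 in B16F10, and B16F10 lay 0.18 below B16F0 on the log2 scale (-0.18 ± 0.04, adjusted p = 3.45e-05).

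Among the anti-apoptotic genes, Bcl2 separated the melanoma lines most. It was measured at 79.1 and 75.9 CPM in Melan-A controls, 53.7 and 56.7 CPM in B16F0 controls and 157.8 and 157.1 CPM in B16F10 controls. B16F10 thus carried 2.85-fold more Bcl2 transcript than B16F0 (log2 difference 1.51 ± 0.03, adjusted p = 2.24e-25), while B16F0 was 1.40-fold below Melan-A (-0.49 ± 0.03, adjusted p = 1.34e-13). Bcl2l1, which encodes Bcl-xL, had 117 and 117.8 CPM in Melan-A, 121 and 116.9 CPM in B16F0 and 172.1 and 168.2 CPM in B16F10. Melan-A and B16F0 overlapped, with a difference of 0.02 and a 95% interval of -0.04 to 0.08 on the log2 scale, and B16F10 was 1.45-fold above Melan-A (adjusted p = 2.5e-16). The sign of the difference between Melan-A and B16F0 flipped under other scalings, down to -0.07 with library totals alone (adjusted p = 0.0218). Mcl1 varied least, from 194.9 to 229.1 CPM over the 6 untreated libraries. It was 1.14-fold higher in B16F0 than in Melan-A (0.19 ± 0.03, adjusted p = 1.56e-07), and the interval for B16F10 against Melan-A was -0.07 to 0.04 on the log2 scale, although it was called lower with at least 10 counts in every library (-0.08, adjusted p = 0.0072).

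The BH3-only genes had no common order among lines. Bmf, which encodes a BH3-only protein that binds the dynein light chains, was at 69.3 and 73 CPM in Melan-A controls, 24.7 and 21.5 CPM in B16F0 controls and 16.4 and 19.1 CPM in B16F10 controls. It was 3.08-fold lower in B16F0 than in Melan-A (-1.62 ± 0.06, adjusted p = 1.91e-21) and 4.01-fold lower in B16F10 (-2.00 ± 0.06, adjusted p = 3.67e-23). Bbc3, which encodes Puma, was lowest in Melan-A and highest in B16F0, with 10.5 and 10.5 CPM in Melan-A, 19 and 17.4 CPM in B16F0 and 15.6 and 15.6 CPM in B16F10. Its log2 difference from Melan-A was 0.79 ± 0.06 in B16F0 and 0.57 ± 0.06 in B16F10, and B16F10 was below B16F0 (-0.22 ± 0.06, adjusted p = 0.00257), a call lost without B16F0 control replicate 1 (-0.15, adjusted p = 0.0978). Bid, which caspase-8 cleaves to link death receptors to the mitochondrion, was lowest in B16F0 at 42.7 and 45.7 CPM, against 68.5 and 72.6 CPM in Melan-A and 64.4 and 67.5 CPM in B16F10. The call of Bid in B16F10 against Melan-A was marginal (-0.10 ± 0.04, adjusted p = 0.0399) and was lost in 10 of the 12 fits that left out 1 library, reaching -0.05 (adjusted p = 0.408) without Melan-A control replicate 2. Bcl2l11 had 11.9 and 12.3 CPM in Melan-A, 13.9 and 12.6 CPM in B16F0 and 9.36 and 8.96 CPM in B16F10. It was 1.32-fold lower in B16F10 than in Melan-A (-0.40 ± 0.09, adjusted p = 0.000146), and B16F0 against Melan-A, whose libraries did not overlap, did not pass (0.14, interval -0.03 to 0.30, adjusted p = 0.133) except after thinning to the smallest library (0.21, adjusted p = 0.0287).

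Counted over the 9 tested members, 4 were higher and 3 lower in B16F0 than in Melan-A, beside 35.3% and 40.6% of all 18338 genes tested. In B16F10 against Melan-A 5 were higher and 3 lower, beside 33.4% and 40.8% of all genes. With library totals alone 34.3% of all calls in this contrast were higher, against 45% with TMM, and the median of all genes shifted by -0.19 on the log2 scale. Under that scaling Mcl1 was also called lower in B16F10 than in Melan-A (-0.20, adjusted p = 6.2e-08), while Bcl2, Bcl2l1, Bax, Bak1 and Bbc3 stayed higher. In B16F10 against B16F0 4 members were higher and 5 lower, beside 30.8% and 31.2%. These 3 comparisons share control libraries.

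The next comparison set SX-682 against the untreated control within each line. Bbc3, Bcl2l1 and Bmf rose in all 3 lines and Bak1 fell in all 3. Of all genes tested, 11.3% rose and 11.7% fell in all 3 lines. In Melan-A 3 of the 9 members rose and 2 fell, beside 23.4% and 24.7% of all genes; in B16F0 5 rose and 2 fell, beside 25.1% and 25.0%; and in B16F10 4 rose and 4 fell, beside 25.5% and 25.3%. The median log2 fold change of the members was 0.05, 0.10 and 0.02 in Melan-A, B16F0 and B16F10, against 0 over all genes in each line. The median size without sign was 0.26, 0.16 and 0.62, against 0.31, 0.32 and 0.36 over all genes.

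**Figure D2:**
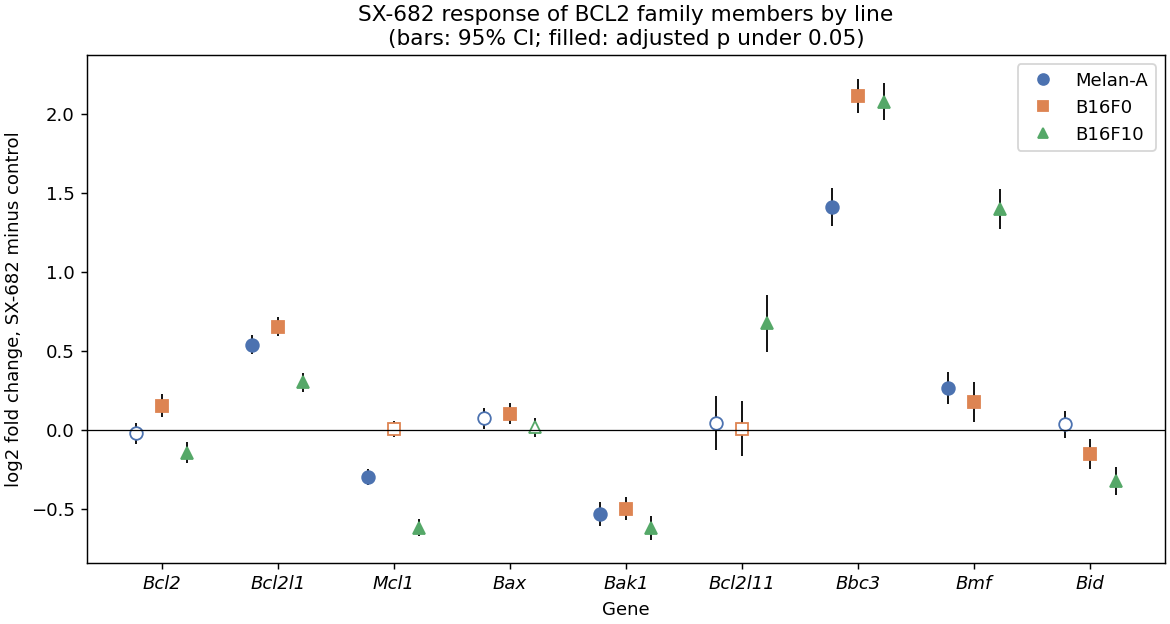
Log2 fold change with SX-682 for the 9 tested members in Melan-A (circles), B16F0 (squares) and B16F10 (triangles), with 95% confidence intervals as bars and filled symbols where the adjusted p was under 0.05. Bbc3 lies highest in every line, between 1.41 and 2.12, and Bak1 lies between -0.62 and -0.50 in every line.

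Bbc3 gave the largest change of the family in each line. Its level went from 10.5 and 10.5 to 28 and 27.9 CPM in Melan-A, from 19 and 17.4 to 74.8 and 83.3 CPM in B16F0, and from 15.6 and 15.6 to 66.2 and 65.8 CPM in B16F10. Every SX-682 library lay above every control of any line. The rise was 2.66-fold in Melan-A (1.41 ± 0.06 on the log2 scale, adjusted p = 3.95e-18), 4.33-fold in B16F0 (2.12 ± 0.05, adjusted p = 1.97e-23) and 4.23-fold in B16F10 (2.08 ± 0.06, adjusted p = 5.56e-23). The rise exceeded that of Melan-A by 0.70 ± 0.08 in B16F0 (adjusted p = 3.52e-08) and by 0.67 ± 0.08 in B16F10 (adjusted p = 1.28e-07). Between the melanoma lines the difference was -0.04, with a 95% interval of -0.20 to 0.13.

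Bmf rose most in B16F10, the line with the lowest untreated level. It went from 16.4 and 19.1 to 46.4 and 47.4 CPM there, from 24.7 and 21.5 to 26.9 and 25.3 CPM in B16F0, and from 69.3 and 73 to 86 and 85 CPM in Melan-A. The treated libraries were above their controls in each line, and the widest gap was in B16F10. The rise was 2.64-fold in B16F10 (1.40 ± 0.06, adjusted p = 5.6e-18), 1.20-fold in Melan-A (0.26 ± 0.05, adjusted p = 4.13e-05) and 1.13-fold in B16F0 (0.18 ± 0.06, adjusted p = 0.0165). Without B16F0 control replicate 2 the change in B16F0 was 0.08 (adjusted p = 0.368), and without B16F0 SX-682 replicate 1 it was 0.13 (adjusted p = 0.172). The response of B16F10 exceeded that of B16F0 by 1.22 ± 0.09 (adjusted p = 4.86e-12) and that of Melan-A by 1.14 ± 0.08 (adjusted p = 1.1e-12). With SX-682 the level in B16F10 was still below both untreated Melan-A libraries.

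The other BH3-only genes responded unevenly. Bcl2l11 went from 9.36 and 8.96 to 13.3 and 16 CPM in B16F10. It stood at 11.9 and 12.3 against 12.2 and 12.7 CPM in Melan-A, and at 13.9 and 12.6 against 13.4 and 13.3 CPM in B16F0, where treated and untreated libraries overlapped. The rise in B16F10 was 1.60-fold (0.68 ± 0.09, adjusted p = 1.06e-07) and differed from the response in B16F0 by 0.67 ± 0.12 (adjusted p = 7.43e-05) and from that in Melan-A by 0.63 ± 0.12 (adjusted p = 9.64e-05). In Melan-A and B16F0 the intervals were -0.12 to 0.21 and -0.16 to 0.18. Bid fell from 64.4 and 67.5 to 54.4 and 51.2 CPM in B16F10, a 1.25-fold decrease (-0.32 ± 0.04, adjusted p = 2.95e-07). In B16F0 it went from 42.7 and 45.7 to 40.2 and 39.1 CPM (-0.15 ± 0.05, adjusted p = 0.0067), a call that was lost without B16F0 control replicate 2 (-0.11, adjusted p = 0.134). In Melan-A it had 68.5 and 72.6 CPM in controls and 73.2 and 71.6 CPM with SX-682, and the groups overlapped. The fall in B16F10 differed from the response in Melan-A by -0.36 ± 0.06 (adjusted p = 1.88e-05). Exons of Bid share 628 bases, 17.7% of its exonic length, with Bcl2l13 on the opposite strand, which had 144378 counts over the 12 libraries against 48398 for Bid, and the strand setting of the counting is not given in the sources used here. Reads from these genes may therefore not be fully told apart. The log2 change of Bcl2l13 was -0.03 in B16F10, 0.13 in B16F0 and -0.15 in Melan-A.

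**Figure D3:**
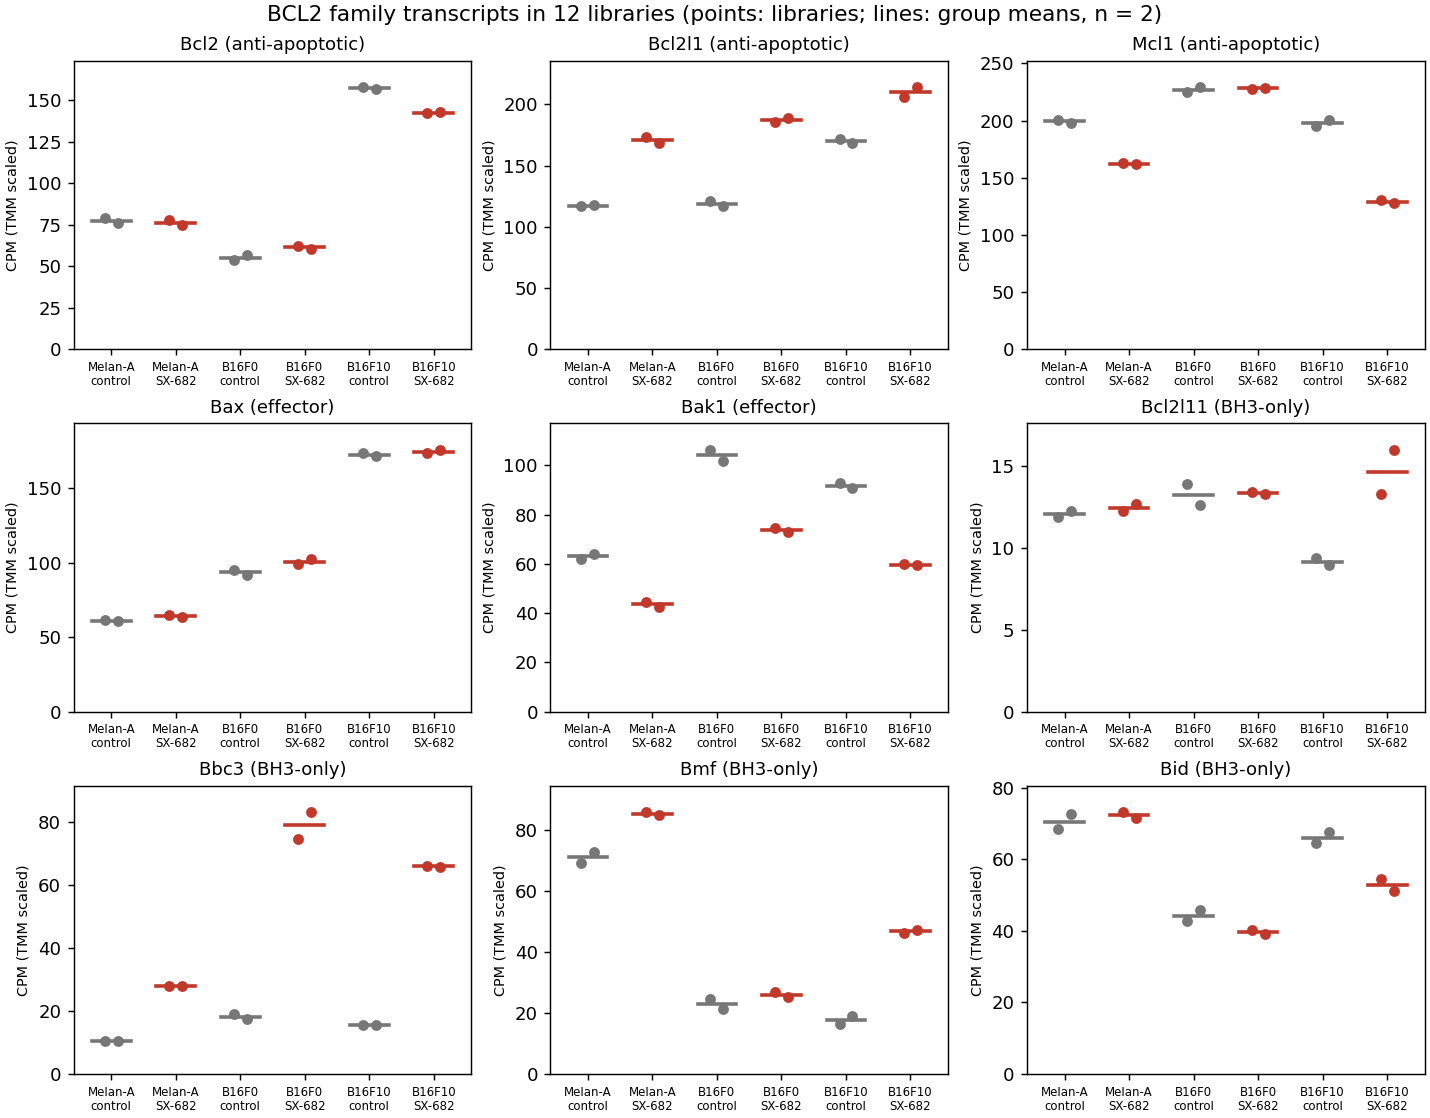
CPM after TMM scaling of each tested member in the 12 libraries, with untreated libraries in grey, SX-682 libraries in red and lines at the group means (n = 2); each axis starts at 0. The treated Bbc3 libraries lie between 27.9 and 83.3 CPM, above all controls, and Bak1 lies below its controls in each line.

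Of the anti-apoptotic genes, Bcl2l1 rose in every line. It went from 117 and 117.8 to 173.4 and 168.2 CPM in Melan-A, from 121 and 116.9 to 185.5 and 189.2 CPM in B16F0, and from 172.1 and 168.2 to 205.8 and 214 CPM in B16F10. Treated and untreated libraries did not overlap within any line. The increase was 1.45-fold in Melan-A (0.54 ± 0.03, adjusted p = 1.13e-15), 1.57-fold in B16F0 (0.65 ± 0.03, adjusted p = 1.62e-17) and 1.23-fold in B16F10 (0.30 ± 0.03, adjusted p = 2.75e-10). It was smaller in B16F10 than in B16F0, by -0.35 ± 0.04 (adjusted p = 8.21e-08), and smaller than in Melan-A, by -0.24 ± 0.04 (adjusted p = 2.49e-05). The difference between B16F0 and Melan-A was marginal (0.11 ± 0.04, adjusted p = 0.0319) and was lost in 9 of the 12 fits that left out 1 library, reaching 0.08 (adjusted p = 0.206) without Melan-A SX-682 replicate 2, and also with library totals alone (0.08), with no filter (0.10, adjusted p = 0.0901) and after thinning (0.10, adjusted p = 0.0684). The count covers all transcripts of Bcl2l1, so the long and the short splice form, which have opposite effects on survival, cannot be told apart.

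Mcl1, whose protein turns over rapidly, fell in 2 lines. In B16F10 it went from 194.9 and 200.7 to 130.2 and 127.6 CPM, and in Melan-A from 200.8 and 198.2 to 162.6 and 162.3 CPM. In B16F0 the controls were at 224.8 and 229.1 CPM and the treated libraries at 228 and 228.2 CPM, inside the range of the controls. The decrease was 1.53-fold in B16F10 (-0.62 ± 0.03, adjusted p = 5.12e-18) and 1.23-fold in Melan-A (-0.30 ± 0.03, adjusted p = 5.61e-11), and the interval in B16F0 was -0.05 to 0.06. All 3 pairs of lines differed in this response: B16F10 from B16F0 by -0.62 ± 0.04 (adjusted p = 1.11e-13), B16F10 from Melan-A by -0.32 ± 0.04 (adjusted p = 4.13e-08) and B16F0 from Melan-A by 0.30 ± 0.04 (adjusted p = 8.7e-08). Bcl2 moved little. It rose in B16F0 from 53.7 and 56.7 to 62.1 and 60.7 CPM (0.16 ± 0.04, adjusted p = 0.000654) and fell in B16F10 from 157.8 and 157.1 to 142.4 and 142.8 CPM (-0.14 ± 0.03, adjusted p = 0.000383). In Melan-A its controls, 79.1 and 75.9 CPM, overlapped the treated libraries at 77.7 and 75.1 CPM. The responses of B16F10 and B16F0 differed by -0.30 ± 0.05 (adjusted p = 1.65e-05).

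The effectors diverged. Bak1 fell from 62.1 and 64.1 to 44.6 and 42.7 CPM in Melan-A, from 106.4 and 102 to 74.6 and 72.9 CPM in B16F0, and from 92.8 and 90.7 to 60.1 and 59.4 CPM in B16F10. No treated library reached a control of its line. The decrease was 1.45-fold (-0.53 ± 0.04, adjusted p = 4.67e-13), 1.41-fold (-0.50 ± 0.04, adjusted p = 8.22e-13) and 1.53-fold (-0.62 ± 0.04, adjusted p = 8.37e-15) in that order. The widest difference in this response between lines was -0.12 for B16F10 minus B16F0, with an interval of -0.23 to -0.01 and an adjusted p of 0.0797. It passed with RLE scaling (-0.14, adjusted p = 0.0358) and with at least 10 counts required in every library (-0.14, adjusted p = 0.027). Bax changed by at most 0.10 on the log2 scale. It went from 95 and 92.1 to 98.8 and 102.5 CPM in B16F0 (0.10 ± 0.03, adjusted p = 0.00649), a call lost without B16F0 control replicate 2 (0.08, adjusted p = 0.107) or without B16F0 SX-682 replicate 2 (0.08, adjusted p = 0.0771). In Melan-A it had 61.4 and 60.9 CPM in controls and 65.2 and 63.7 CPM with SX-682 (0.07 ± 0.03, adjusted p = 0.0582; 0.08 and adjusted p = 0.0379 with RLE scaling, and called in 7 of the 12 fits that left out 1 library), and in B16F10 173.5 and 171.3 against 173.3 and 175.8 CPM (interval -0.04 to 0.08). Exons of Bak1 overlap 2 entries named Ggnbp1 on the opposite strand, which had 182 and 33 counts in all libraries together against 59347 for Bak1. Bax shares 192 exonic bases, 12.2% of its exonic length, with Gm45808 on the same strand, which has no row in the count table. Bcl2 shares 558 exonic bases, 6.09% of its exonic length, with D630008O14Rik on the opposite strand, which had 6 counts against 76322 for Bcl2.

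Tested for a difference in response, 5 of the 9 members differed between B16F0 and Melan-A, beside 34.4% of all genes, 7 differed between B16F10 and Melan-A, beside 33.8%, and 6 differed between B16F10 and B16F0, beside 30.3%. Mcl1, Bcl2, Bcl2l1 and Bid differed in all 3 pairs, although Bid was close to the threshold for B16F10 minus B16F0 (-0.17 ± 0.06, adjusted p = 0.0476), as was Bcl2 for B16F10 minus Melan-A (-0.12 ± 0.05, adjusted p = 0.0432), and each of these calls was lost in 5 of the 12 fits that left out 1 library. The Bid call was also lost with library totals alone (-0.14, adjusted p = 0.118). As given above, Bcl2l1 was marginal too for B16F0 minus Melan-A (0.11 ± 0.04, adjusted p = 0.0319). That call was lost with library totals alone (0.08), with no filter (0.10) and after thinning (0.10). For B16F0 minus Melan-A, Bcl2 was lost without Melan-A SX-682 replicate 2 (adjusted p = 0.0554) or B16F0 control replicate 1 (adjusted p = 0.0823), and Bid without Melan-A control replicate 1 (adjusted p = 0.0694) or B16F0 control replicate 2 (adjusted p = 0.118). Bcl2l11 and Bmf differed for B16F10 against each of the other lines, and Bbc3 differed for each melanoma line against Melan-A. Bax and Bak1 passed in no pair with TMM scaling and the expression filter, but with at least 10 counts in every library both passed for B16F10 minus B16F0 (Bax -0.10, adjusted p = 0.046). The 3 pairs share libraries.

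To set the BH3-only genes against the anti-apoptotic genes, the level per kilobase was summed in each class. The anti-apoptotic sum was 92.4 ± 0.669 CPM per kb in Melan-A controls and 93.1 ± 1.05 with SX-682 (SD, n = 2). In B16F0 it was 98.4 ± 0.470 in controls and 114.3 ± 0.502 with SX-682, and in B16F10 it was 112.2 ± 0.544 and 99 ± 0.773. The treated B16F0 libraries were thus above their controls, the treated B16F10 libraries below them, and the Melan-A libraries overlapped. The BH3-only sum was higher with SX-682 in each line, at 51.4 ± 0.462 against 39.9 ± 1.37 CPM per kb in Melan-A, 55 ± 2.39 against 27.1 ± 0.453 in B16F0 and 56.7 ± 0.390 against 30.4 ± 0.948 in B16F10. The 3 lines differed more in this sum without SX-682, where Melan-A was highest, than with it. The BH3-only sum per unit of anti-apoptotic sum was 0.431 ± 0.018 in Melan-A controls against 0.552 ± 0.00127 with SX-682, 0.275 ± 0.00594 against 0.481 ± 0.0188 in B16F0, and 0.272 ± 0.00714 against 0.573 ± 0.00841 in B16F10. These are descriptions of transcripts, with no test, since the members were chosen with results known.

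**Figure D4:**
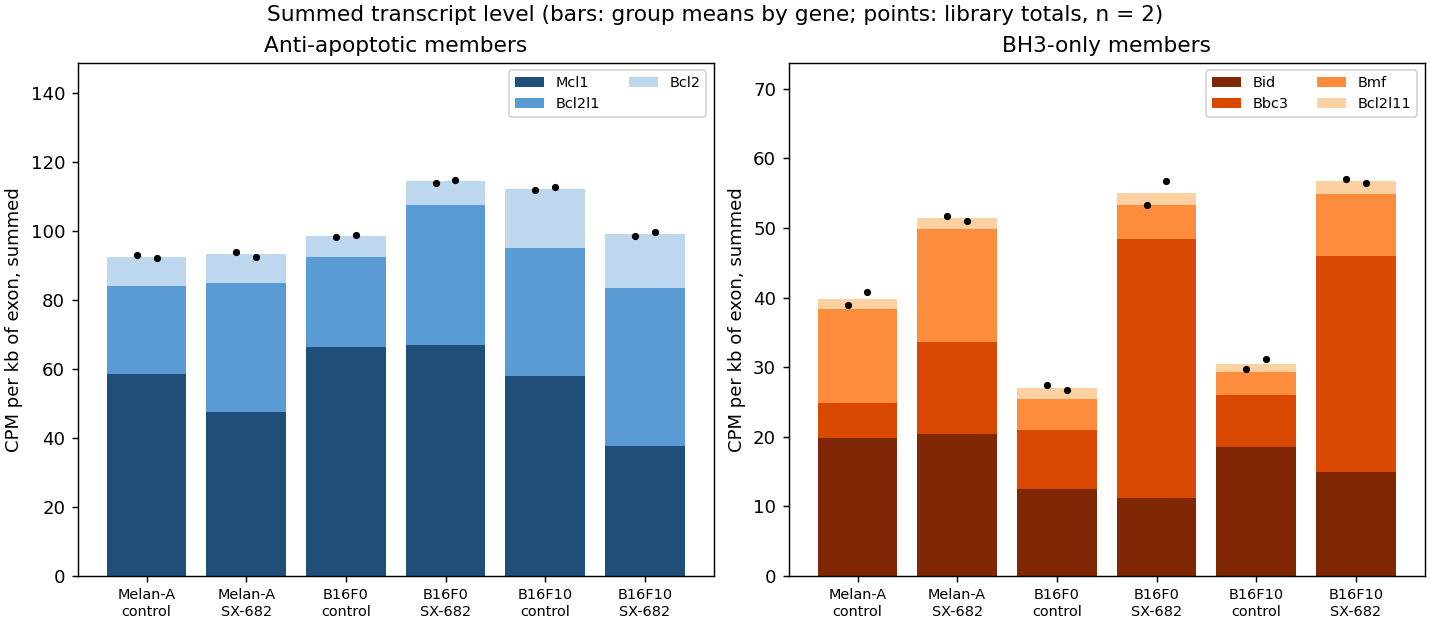
Summed level of the anti-apoptotic members (left) and of the BH3-only members (right) in CPM per kilobase of exon, stacked by gene as group means, with points for the library totals (n = 2); Pmaip1, at or under the floor in all libraries, is not drawn. The Mcl1 part of the B16F10 bar shrinks from 57.9 to 37.7 with SX-682 while the Bbc3 part grows from 7.35 to 31.1.

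The make-up of both classes changed with SX-682. Mcl1 accounted for 63.1 ± 0.120% of the anti-apoptotic sum in Melan-A controls and 51 ± 0.509% with SX-682, for 67.5 ± 0.573% and 58.4 ± 0.212% in B16F0, and for 51.6 ± 0.813% and 38.1 ± 0.834% in B16F10. The share of Bcl2l1 grew in turn from 27.7 ± 0.318% to 40 ± 0.396%, from 26.4 ± 0.778% to 35.7 ± 0.332% and from 33.1 ± 0.686% to 46.2 ± 0.926%. In treated B16F10 libraries Bcl2l1 thereby held the largest share, with levels divided by the length of all exons. Divided by the longest transcript, Bcl2l1 was already above Mcl1 in B16F10 controls, at 66.3 against 57.9 CPM per kb. The class sums and shares were not recomputed with that length. Bbc3 made up 12.4 ± 0.368% of the BH3-only sum in Melan-A controls and 25.6 ± 0.127% with SX-682, 31.6 ± 1.41% and 67.6 ± 2.20% in B16F0, and 24.2 ± 0.679% and 54.8 ± 0.163% in B16F10. Bid was the largest BH3-only part in the controls of all 3 lines, at 49.8 ± 0.332%, 46 ± 3.04% and 61 ± 0.0919%, and remained so with SX-682 only in Melan-A, at 39.7 ± 0.262%. Per unit of Mcl1 transcript, the group mean of Bbc3 was 0.0848 in Melan-A controls against 0.277 with SX-682, 0.129 against 0.558 in B16F0, and 0.127 against 0.824 in B16F10.

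On a mean log2 scale, in which each gene weighs the same, the BH3-only mean minus the anti-apoptotic mean moved with SX-682 by 0.92 in B16F10, 0.16 in B16F0 and 0.61 in Melan-A. Pmaip1, at or under the floor in all libraries, was part of these means. The Melan-A value rested on its single counts, and in the melanoma lines its undetected level made the changes smaller. Without that gene the changes were 1.11, 0.27 and 0.37 in the same order. Without Bid they were 1.19, 0.31 and 0.78, and as the log2 ratio of the sums per kilobase they were 1.08, 0.81 and 0.36. The direction was upward in each line in all of these, and the order of Melan-A and B16F0 depended on the scale. All of them hold Bbc3. Without Bbc3, an alternative chosen after seeing the data, the change in B16F0 turned to -0.26 on the mean log2 scale and -0.27 for the sums per kilobase. In B16F10 it was 0.59 and 0.33, and in Melan-A 0.43 and 0.12, or 0.042 on the mean log2 scale without Pmaip1 as well. The BH3-only sum without Bbc3 was 17.8 ± 0.436 CPM per kb in B16F0 with SX-682 against 18.5 ± 0.0686 in controls, 25.6 ± 0.269 against 23.1 ± 0.925 in B16F10 and 38.2 ± 0.412 against 34.9 ± 1.34 in Melan-A.

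The sequences before the start sites are shown for the 3 members that rose in all lines, Bbc3, Bcl2l1 and Bmf, and for Bcl2l11 and Mcl1, whose response was line-dependent. Each is the 250 bases before a RefSeq start site on GRCm38.p6, read 5′ to 3′ on the strand of the gene, with motif matches in capitals; the motifs searched on both strands were the E-box CACGTG, the FOXO core GTAAACA, the C/EBP-ATF core TGATGNAA, the TATA box TATAAA, the GC box GGGCGG and the p53 half-site, and matches of different motifs may overlap. The windows are chr7:16310011-16310260 (+ strand) for Bbc3, chr2:152831729-152831978 (- strand) for Bcl2l1, chr2:118544588-118544837 (- strand) for Bmf, chr2:128125788-128126037 (+ strand) for Bcl2l11 and chr3:95658471-95658720 (+ strand) for Mcl1.
Bbc3: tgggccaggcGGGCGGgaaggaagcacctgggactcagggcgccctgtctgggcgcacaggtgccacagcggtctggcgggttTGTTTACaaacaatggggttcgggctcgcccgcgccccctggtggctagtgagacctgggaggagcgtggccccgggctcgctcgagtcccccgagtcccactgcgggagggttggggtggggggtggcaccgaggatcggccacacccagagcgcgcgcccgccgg
Bcl2l1: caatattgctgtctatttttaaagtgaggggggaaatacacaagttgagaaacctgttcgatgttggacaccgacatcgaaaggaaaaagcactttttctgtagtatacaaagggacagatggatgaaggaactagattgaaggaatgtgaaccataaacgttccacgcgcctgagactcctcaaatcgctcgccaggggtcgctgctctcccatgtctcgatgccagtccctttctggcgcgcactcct
Bmf: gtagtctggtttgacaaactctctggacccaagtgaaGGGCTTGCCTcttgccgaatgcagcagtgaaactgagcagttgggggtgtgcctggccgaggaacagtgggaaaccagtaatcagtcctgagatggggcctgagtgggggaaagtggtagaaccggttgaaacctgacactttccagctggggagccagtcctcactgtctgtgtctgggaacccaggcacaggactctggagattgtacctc
Bcl2l11: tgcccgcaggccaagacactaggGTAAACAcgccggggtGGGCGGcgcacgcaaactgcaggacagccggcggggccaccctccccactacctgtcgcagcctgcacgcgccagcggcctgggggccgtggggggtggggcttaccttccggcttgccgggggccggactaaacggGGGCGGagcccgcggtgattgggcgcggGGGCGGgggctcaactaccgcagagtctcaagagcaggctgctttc
Mcl1: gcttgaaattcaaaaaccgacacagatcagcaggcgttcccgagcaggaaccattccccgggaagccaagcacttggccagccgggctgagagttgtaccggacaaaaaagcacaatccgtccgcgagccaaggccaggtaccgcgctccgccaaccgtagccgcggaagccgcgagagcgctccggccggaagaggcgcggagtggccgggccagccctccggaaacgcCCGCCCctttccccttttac

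None of these 5 windows holds an annotated exon in GENCODE M21. Those of Bbc3 and Bmf lie inside the gene spans given below, between annotated exons. RefSeq listed 16 windows for 9 of the members, since several have more than 1 start site. The Bak1 window and the Bcl2l1 windows not shown are exonic over all 250 bases. Only 1 window is shown for each of the 5 genes, and Bbc3, Bcl2l1, Bmf and Bcl2l11 have others. For Bbc3 and Bcl2l11 the window shown is the only one with the FOXO core, and for Bmf the only one with a p53 half-site. The FOXO core GTAAACA was present in 1 window of Bbc3 and 1 of Bcl2l11, both shown, and in 3.17% of 32536 promoter windows of the same length. The C/EBP-ATF core TGATGNAA was in none of the 16 windows and in 3.4% of all, and TATAAA was in none and in 12.3% of all. A p53 half-site was found in 1 window of Bmf and in that of Bax, against 7.12% of all windows, and CACGTG in 1 window of Bbc3 and in that of Bax, against 6.04%. The GC box GGGCGG occurred in 9 of the 16 windows, against 33% of all, and the Bcl2l1 window shown had none. The 9 windows belong to Bax, Bbc3, Bcl2, Bcl2l11, Bid and Mcl1. Windows of 1 gene are not independent, and the comparison with all windows did not match GC content. GC content was 72.4% in the Bbc3 window shown and 47.6% in that of Bcl2l1, with a median of 52.4% over all windows. These matches describe letters in a window and carry no measurement of binding.

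The genes lie at chr7:16308393-16318205 for Bbc3 (ENSMUSG00000002083), chr2:152780668-152831728 for Bcl2l1 (ENSMUSG00000007659), chr2:118528757-118549687 for Bmf (ENSMUSG00000040093), chr2:128126038-128162547 for Bcl2l11 (ENSMUSG00000027381), chr3:95658788-95663176 for Mcl1 (ENSMUSG00000038612) and chr1:106538178-106714274 for Bcl2 (ENSMUSG00000057329), on GRCm38. Bax lies at chr7:45461697-45466898 (ENSMUSG00000003873), Bak1 at chr17:27019810-27029009 (ENSMUSG00000057789) and Bid at chr6:120891930-120916853 (ENSMUSG00000004446). All are protein-coding, and each value is a count over the exons of the whole gene.

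Other genes of the pathway were read from 5 lists of known function. Their counts stand beside 23.4% of all genes tested that rose and 24.7% that fell in Melan-A, 25.1% and 25.0% in B16F0, and 25.5% and 25.3% in B16F10. Of 9 transcription factors known to act on BH3-only genes, all tested, 5 rose and 2 fell in Melan-A, 5 rose and 2 fell in B16F0, and 5 rose and 3 fell in B16F10, with medians of 0.22, 0.23 and 0.35 against 0 over all genes. Ddit3, which encodes the stress factor Chop, had log2 increases of 3.51 ± 0.04 in B16F10, 2.05 ± 0.04 in B16F0 and 2.14 ± 0.04 in Melan-A. Atf4, which acts upstream of Ddit3, rose by 1.45 ± 0.02, 1.02 ± 0.02 and 0.73 ± 0.02 in the same order. Jun fell by 0.72 in Melan-A (-0.72 ± 0.03) and rose by 0.86 ± 0.03 in B16F0 and 0.35 ± 0.03 in B16F10. Both Ddit3 (1.45, adjusted p = 1.34e-18) and Atf4 (0.43, adjusted p = 4.91e-11) rose more in B16F10 than in B16F0.

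Of 10 p53 target genes outside the family, 2 rose and 2 fell in Melan-A, 9 rose and 0 fell in B16F0, and 4 rose and 1 fell in B16F10, with medians of 0.02, 0.37 and 0.07. Mdm2, the ubiquitin ligase of p53, rose by 0.70 ± 0.03 in B16F0 and 0.67 ± 0.03 in B16F10, and the Melan-A value was 0.06 ± 0.03 (adjusted p = 0.153). Sesn2, also a target of Atf4, rose in all 3 lines, by 0.59 ± 0.04, 0.29 ± 0.04 and 0.97 ± 0.04. Trp53inp1 rose by 0.53 ± 0.04 in B16F0 and 0.27 ± 0.04 in B16F10, with 0.10 ± 0.06 in Melan-A (adjusted p = 0.183).

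Downstream of the mitochondrion, 3 of 12 genes rose and 5 fell in Melan-A, 4 rose and 3 fell in B16F0, and 3 rose and 6 fell in B16F10, with medians of 0.01, -0.06 and -0.17. Htra2, a mitochondrial protease, rose by 0.54 ± 0.03, 0.48 ± 0.03 and 0.60 ± 0.03 in Melan-A, B16F0 and B16F10. Birc2, an inhibitor of apoptosis protein, rose by 0.55 ± 0.06, 0.62 ± 0.06 and 0.65 ± 0.05. Endog, a mitochondrial nuclease, rose by 0.60 ± 0.12 in Melan-A, and its values in B16F0 and B16F10 were -0.06 ± 0.13 and -0.06 ± 0.12.

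Of 13 other BCL2 family genes, 12 were in the table and 9 were tested. In Melan-A 1 rose and 2 fell, in B16F0 2 rose and 1 fell, and in B16F10 2 rose and 1 fell, with medians of -0.15, -0.07 and -0.07. Bcl2l2, which encodes the anti-apoptotic Bcl-w, rose by 0.18 ± 0.05 in Melan-A and fell in both melanoma lines (-0.12 ± 0.05 and -0.13 ± 0.05). Bok, a relative of the effectors, rose by 0.52 ± 0.14 in B16F10, with -0.44 ± 0.19 in Melan-A (adjusted p = 0.0546) and -0.32 ± 0.15 in B16F0 (adjusted p = 0.0725). Bcl2l12 fell in Melan-A (-0.27 ± 0.10). Hrk, a BH3-only gene too low on average for the naming rule and named after its values were seen, rose in both melanoma lines, by 1.67 ± 0.36 in B16F0 (0.199 to 0.613 CPM, adjusted p = 0.000228) and by 1.79 ± 0.50 in B16F10 (0.0892 to 0.311 CPM, adjusted p = 0.00299). In Melan-A it stood at 4.23 CPM in controls and 5.33 CPM with SX-682 (0.33 ± 0.19, adjusted p = 0.156). Of 8 partners and turnover factors of the family, 1 rose and 5 fell in Melan-A, 2 rose and 5 fell in B16F0, and 1 rose and 4 fell in B16F10, with medians of -0.21, -0.12 and -0.06. Dynll1, the light chain that binds Bcl2l11 protein, fell in each line (-0.85 ± 0.03, -0.42 ± 0.03 and -0.27 ± 0.03), as did Dynll2, which binds Bmf protein (-0.57 ± 0.03, -0.25 ± 0.03 and -0.57 ± 0.03). Huwe1, a ubiquitin ligase of Mcl1, fell in Melan-A and B16F10 (-0.21 ± 0.02 and -0.08 ± 0.02) and rose by 0.48 ± 0.02 in B16F0.

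The pattern of each member over the 12 libraries was compared with 10891 other genes by the root mean square difference of log2 CPM centred on each gene's mean. The nearest genes were Cndp2 and Fto to Bax, at 0.038 and 0.068, Irx3 and Fchsd2 to Bcl2l1, at 0.071 and 0.092, and Snrpd3 and Akt1 to Bak1, at 0.072 and 0.073. Slc7a6 and Tmem158 were nearest to Mcl1, at 0.089 and 0.091, Calu and Seh1l to Bid, at 0.069 and 0.075, Cst3 and Mga to Bcl2, at 0.097 and 0.11, and Gkap1 and Rfx2 to Bcl2l11, at 0.10 and 0.11. The members with the widest range had no gene as close, with 3110053B16Rik and 6820431F20Rik nearest to Bbc3 at 0.22 and 0.32 and Dgat2 and Tmco4 nearest to Bmf at 0.20 and 0.24. The SD of centred log2 CPM was 1.12 for Bbc3 and 0.89 for Bmf, against 0.23 to 0.63 for the other members.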

How the data were processed

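RNA-seq of Melan-A, B16F0 and B16F10, each untreated and with SX-682, gave 12 libraries in 6 groups of 2. The authors deposited raw read counts for each gene, with gene lengths and GRCm38 (mm10) coordinates; per the submitters' processing notes the tools included cutadapt, STAR and DESeq2. The counting program and its strand setting are not given in the sources used here. All 12 count columns were matched to libraries by name.

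Counts were tested with edgeR 4.0.16 in R 4.3.3 by the quasi-likelihood F-test, in a single fit of all 12 libraries by group, with TMM scaling, edgeR's expression filter (18338 of 34513 genes kept) and a prior count of 0.125. P-values were adjusted over all genes tested by the Benjamini-Hochberg method, with a threshold of 0.05. The SE of a log2 fold change is its size over the root of F, with 6 residual and 21.9 prior degrees of freedom. With 2 libraries against 2, an exact permutation test of a single value cannot go below p = 0.333. The fit was tested on simulated data. Library totals were 48876982 to 85322092 counts, and the floor of 3 counts reflects counting error alone, as reads were counted without molecular identifiers as far as the sources say. Each library counted as 1 replicate. Libraries of a group differed by more than sampling noise (chi-square per gene of 2.87 to 5.25), which does not tell separate cultures from technical libraries. The fit put the variation between libraries of a group, beyond sampling noise, at 2.78%. Levels were divided by the exonic length in the file, which equals the union of GENCODE M21 exons for all 10 members.

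Members and gene lists were chosen with earlier results of these data known. Named were all members, from each list up to 3 genes with the largest change in any line among those that passed (mean log2 CPM of at least 1), and the 2 genes nearest in pattern to each member. Alternatives were DESeq2 1.42.0, RLE scaling, library totals, other filters and thresholds, thinning to the smallest library, the replicate number as a block, separate fits of each line, a prior count of 2, each library left out, other lengths and other make-ups of the BH3-only class; those without Bbc3 were chosen after seeing the data.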

Additional observations from a re-analysis of the deposited data

Results flagged for a closer look

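The response to SX-682 differed between lines for 7 members by the interaction test of edgeR, and each is given here by its widest difference on the log2 scale. For B16F10 minus B16F0 the difference was 1.22 for Bmf, 0.67 for Bcl2l11, -0.62 for Mcl1, -0.35 for Bcl2l1 and -0.30 for Bcl2. For B16F0 minus Melan-A it was 0.70 for Bbc3, and for B16F10 minus Melan-A it was -0.36 for Bid. Bax and Bak1 passed in no pair of lines in this fit, but both passed for B16F10 minus B16F0 with at least 10 counts in every library (adjusted p = 0.046 and 0.027), and Bak1 also with RLE scaling (adjusted p = 0.0358). Groups of 2 libraries are too small to ask whether a library stands apart from the others of its group.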

How the results depend on the processing

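Of 321 recomputed counts of called members, 306 stayed within 1.5 times of the reported count and 15 did not. With a log2 fold change of at least 0.5 required, the members lower in Melan-A with SX-682 fell to 1, those higher and lower in B16F0 to 2 and 0, and those lower in B16F10 to 2; untreated, those lower in B16F10 than in Melan-A and than in B16F0 fell to 1 each; and those whose response differed fell to 1 (B16F0 minus Melan-A), 3 (B16F10 minus Melan-A) and 3 (B16F10 minus B16F0). At adjusted p under 0.01 the differences of B16F0 minus Melan-A fell to 3. Leaving out 1 library gave 3 to 5 members higher and 1 to 2 lower in B16F0, both lowest without B16F0 control replicate 2, and 3 to 5 response differences of B16F0 minus Melan-A, lowest without Melan-A control replicate 1, Melan-A SX-682 replicate 2 or B16F0 control replicate 2. In these fits the lone library of a group is assumed to vary like the other groups.

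The sign of a member's change turned 24 times, never for a change called in the reported fit and once with a call in the alternative. Untreated Bcl2l1 in B16F0 minus Melan-A was -0.014 with DESeq2 and with RLE scaling, -0.074 with library totals alone (adjusted p = 0.0218), -0.022 with at least 10 counts in every library, and -0.0055 to 0.050 with a library left out. Untreated Mcl1 in B16F10 minus Melan-A was 0.0084 with no filter and -0.022 to 0.013 with a library left out. With SX-682, Bcl2 in Melan-A was 0.0040 after thinning and -0.048 to 0.017 with a library left out; Mcl1 in B16F0 was -0.0085 with library totals and -0.0069 to 0.018; and Bcl2l11 in B16F0 was -0.0059 with library totals, -0.0041 after thinning and -0.061 to 0.083. In the difference of B16F0 minus Melan-A, Bax was -0.0035 with library totals and -0.0039 to 0.047 with a library left out, Bak1 -0.0049 to 0.056, Bcl2l11 -0.11 to 0.028 and Bmf -0.18 to 0.011; in B16F10 minus B16F0, Bbc3 was -0.12 to 0.037. The cause was not tested.

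The change of the BH3-only against the anti-apoptotic mean moved in B16F0 from 0.16 to 0.31 without Bid, 0.27 without Pmaip1 and 0.81 with sums per kilobase, and in B16F10 from 0.92 to 1.19, 1.11 and 1.08. In Melan-A it changed under these alternatives, as given above, by less than the SD between its libraries. Its reported value and that SD rested on single counts of Pmaip1. Without Bbc3, chosen after seeing the data, it turned to -0.26 in B16F0 (-0.26 without Pmaip1 as well, -0.27 with sums per kilobase) and was 0.59, 0.74 and 0.33 in B16F10; in Melan-A it was 0.042 without Bbc3 and Pmaip1 and 0.12 with sums per kilobase. With 1 library left out it was 0.30 to 0.93 in Melan-A, 0.11 to 0.20 in B16F0 and 0.90 to 0.94 in B16F10. Replicate numbers did not pair the libraries: deviations of same-numbered libraries correlated at -0.0087 in B16F10, -0.075 in B16F0 and 0.010 in Melan-A. With the replicate number as a block, 3 members rose and 2 fell in Melan-A, 5 and 2 in B16F0, and 4 and 4 in B16F10, the same counts as without it. Pmaip1 had at most 1 count in a library, and whether depth limited it was not tested.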
